A study of Mus musculus with 5 samples.

Results

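The genes of the proteasome were measured in ZAS3-null and wild-type mouse thymus. The set was taken by symbol and held every named gene beginning with Psma to Psmg and a digit, apart from the inducible and thymus-specific beta subunits Psmb8, Psmb9, Psmb10 and Psmb11. That rule took 43 of the 16504 genes named on the array. Of these, 30 encode constitutive subunits of the 20S core particle or the 19S regulatory particle. The other members were 6 assembly chaperones, the activators Psme1, Psme3 and Psme4, the inhibitor Psmf1 and the germ cell subunit Psma8. Psmc3ip, which acts in meiotic recombination, and Psme3ip1, which encodes a partner of Psme3, matched the rule by their symbols and encode no subunit. Psmb6, Psme2 and Psmg4 had no named probe and were not analysed here. A single probe measured 41 members, and Psmc2 and Psme4 had 2 probes each.

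Each of 5 two-colour arrays carried RNA of one ZAS3-null thymus and RNA of one wild-type thymus. Both mice of an array were littermates aged 6 to 8 weeks and of the same sex, and no array compared mice of the same genotype. ZAS3 is the product of Hivep3, a large zinc finger protein that recognises the kappaB motif. The sources used here give neither the strain nor the part of the gene that was removed. The labels name whole thymus and the design text names thymocytes. Values are log2 ratios of both channels of an array. Their direction was not settled, because the labels put the ZAS3-null RNA in Cy5 and the design text puts it in Cy3. A negative log2 ratio likely stands for a lower level in the ZAS3-null thymus, from the order in the sample titles and channels. The dyes were never swapped, so an effect of the dye on a probe and an effect of the genotype cannot be told apart.

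The proteasome is the main protease of the cytosol and nucleus. Its barrel-shaped core particle has outer rings of alpha subunits, which gate the entrance, and inner rings of beta subunits, some of which cut the substrate. The regulatory particle sits on the barrel, and its base holds a ring of ATPases that unfold substrates, while its lid removes the ubiquitin chain. Subunits are needed in fixed proportions, and in mammals the transcription factor encoded by Nfe2l1 raises many subunit genes together when proteasome activity is short. In the thymus the proteasome also makes the peptides that are shown on MHC class I to developing T cells.

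Log2 ratios rose across the slide on these arrays, so all values were read on a pair of scales. The first scale is the ratio as deposited. On the second, called position-corrected, each spot had the median of its neighbourhood on that array, a square of 21 by 21 spots, taken off. The numbers of the value table did not match those of the annotation, and all gene names rest on an order with rows and columns of the slide exchanged. That order was recovered from these same data, so the figures that follow describe it and are no independent check of it. With that order the 256 spots whose 5 ratios all lay below -1.5 had numbers without a gene, against 41 with the numbers as deposited. Across 1030 genes with 2 probes, the means of both probes correlated at 0.27 as deposited and 0.13 after correction, against 0.05 and 0.03 with the deposited numbers. Genes are not independent replicates, and probes of a gene can lie in different places of the slide. The correlation between arrays over named genes ranged from 0.19 to 0.70 as deposited and from 0.07 to 0.62 after correction. Hivep3 itself had log2 ratios of 0.069, 0.15, -0.032, 0.095 and 0.10 on arrays 1 to 5 as deposited. Its mean was 0.075 ± 0.066 (SD, n = 5; limma adjusted p = 0.37), and after correction it was 0.17 ± 0.087 (adjusted p = 0.141; unadjusted p = 0.0299), positive on 5 of 5 arrays. Neither value passed the threshold, so the targeted gene did not check the labels.

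Most proteasome genes had slightly negative log2 ratios, and few passed the test one by one. After position correction 37 of the 43 members had a mean below 0, where 52.0% of all 20861 features tested did. The median of the member means was -0.18, the value of Psmd14 (a linear ratio of 0.882), and the median over all features was -0.01. On this scale 19 members lay below 0 on all 5 arrays (44.2%, against 14.9% of all features) and 1, Psmd12, lay above 0 on all 5 (11.7% of all features). At a limma adjusted p under 0.05, 3 members were negative after correction, Psmc3, Psmc4 and Psmd2 (6.98%, against 3.25% of all features and 2.3% of named genes), and 0 were positive (0.7% of all features). Unadjusted p-values under 0.05 after correction were found for 21 members, against 5771 of the 20861 features.

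As deposited, 17 members were negative past the same threshold (39.5%, against 12.8% of all features) and 2 were positive (11.7% of all features). The positive genes were Psmf1 and Psma8. The median of the member means was -0.16 as deposited, against -0.03 over all features, and 30 of 43 means lay below 0 (54.5% of all features). As deposited, 19 members lay below 0 on all 5 arrays (20.5% of all features) and 6 lay above 0 on all 5 (16.1% of all features). These counts changed when single arrays were left out. On the deposited scale, 8 members were called negative when array 1 was left out (18.6%, against 7.26% of all features), 7 when array 4 was (16.3%, against 4.76%) and 6 when array 5 was (14.0%, against 3.31%). After correction, leaving out array 1 gave 1 negative call (2.33%, against 1.47% of all features) and array 2 gave 5 (11.6%, against 5.81%). Leaving out array 4 or array 5 gave 0 (1.34% and 1.32% of all features). The median did not depend on 1 array to that degree, and ranged from -0.18 to -0.15 after correction and from -0.18 to -0.13 as deposited with each array left out in turn.

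**Figure D1:**
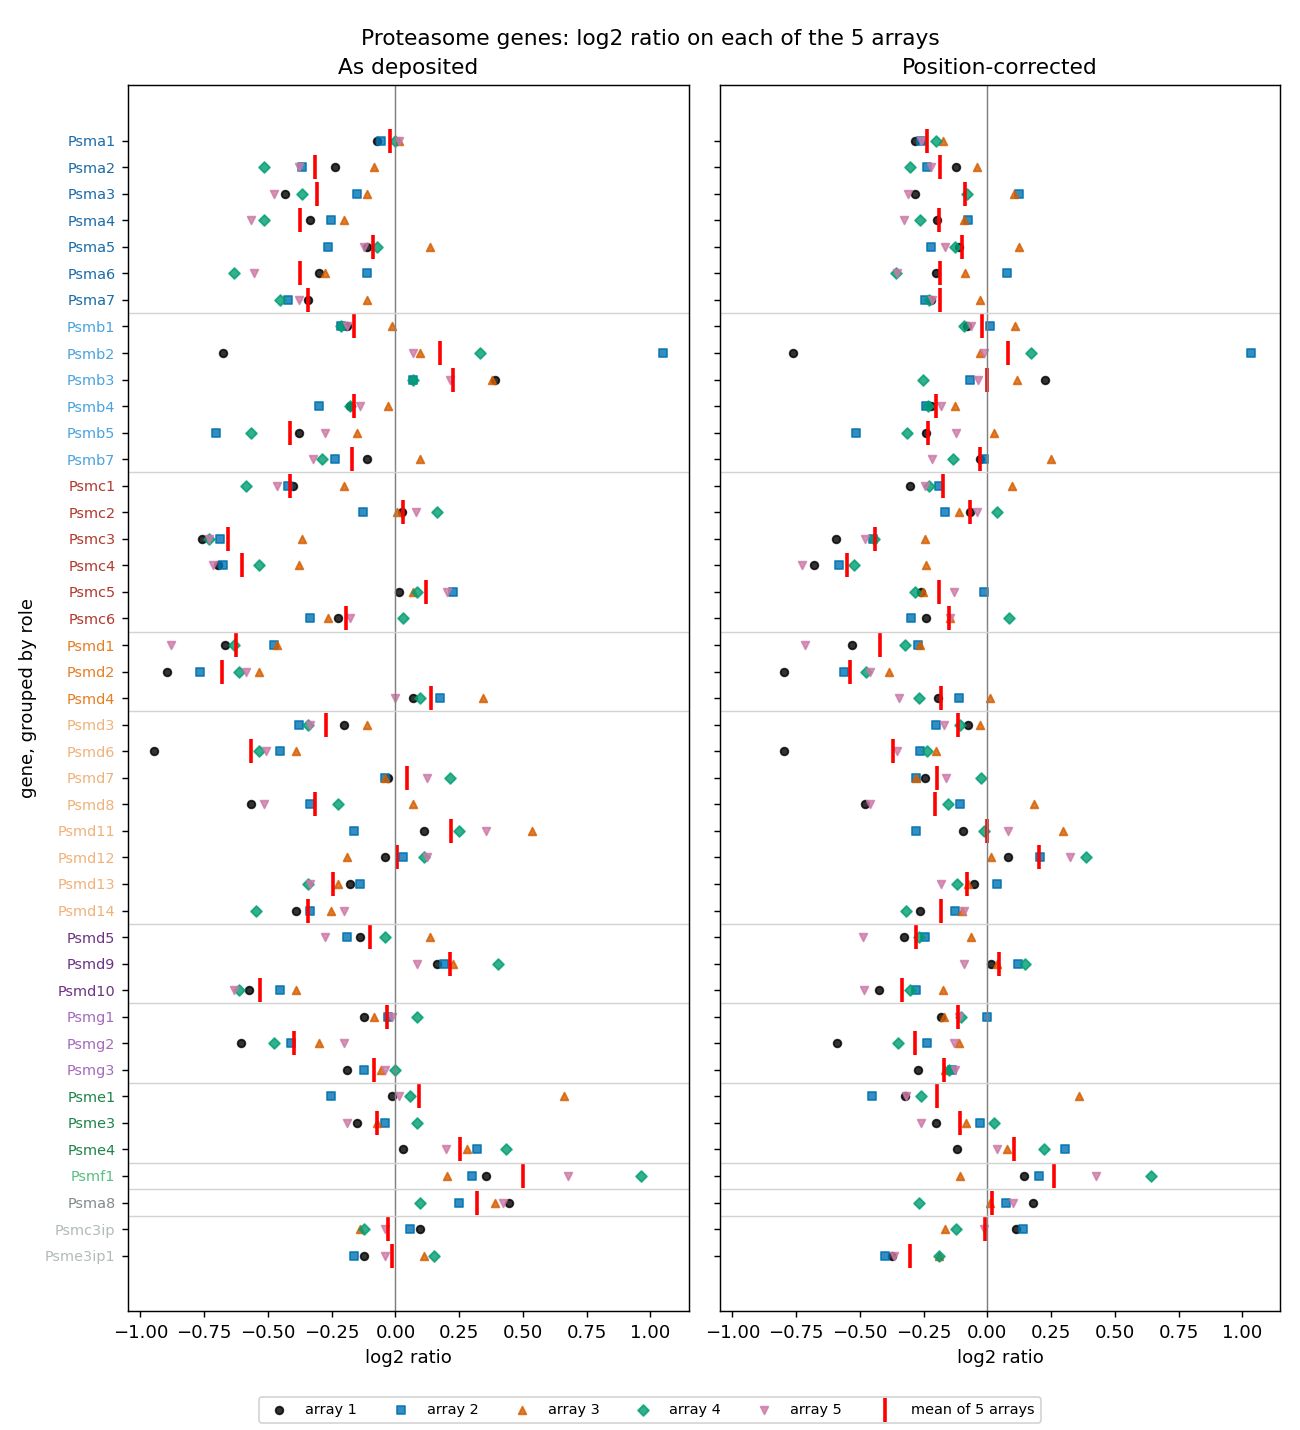
Log2 ratio of each of the 43 genes (rows, grouped by role and coloured by group) on the 5 arrays (symbols), with the mean as a red bar, as deposited on the left and position-corrected on the right. After correction 37 of the 43 means lie left of 0, and array 3 (orange triangles) is often the value nearest to or right of 0.

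The deposited values of the members followed the slide, as those of other genes did. Of the 17 negative calls, 14 lay in columns 1 to 35 of the slide and 3 in columns 36 to 70. Of the 15 members in the first 35 columns 93.3% were called negative, against 25.6% of the 5402 named genes there. In columns 36 to 70, 3 of 13 members were called negative (23.1%, against 11.6% of named genes), and in the last 35 columns 0 of 15 were (1.18% of named genes). The positive calls, Psmf1 in column 83 and Psma8 in column 90, lay in the last 35 columns. There 1698 of 5267 named genes were called positive. Across the 43 members the mean log2 ratio correlated with the slide column at r = 0.73 as deposited and 0.21 after correction, as a description of genes that share the same arrays. Members in every part of the slide tended to lie below their surroundings. Of the 41 members with 1 probe, 34 had a deposited mean below the median of the named probes in their own column. After correction, the median of the member means was -0.18 in the first 35 columns, -0.15 in the middle and -0.11 in the last 35.

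**Figure D2:**
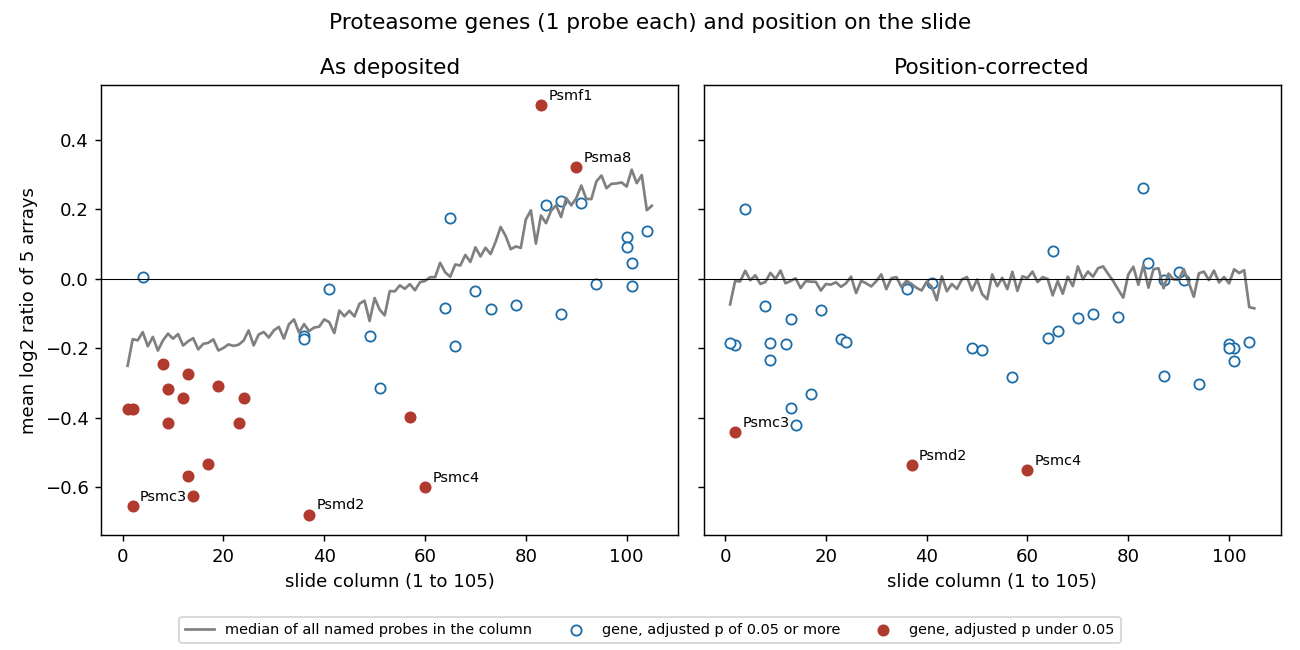
Mean log2 ratio of the 41 genes measured by 1 probe against their column on the slide, as deposited (left) and position-corrected (right). The grey line is the median of all named probes in a column, filled points are genes past an adjusted p of 0.05, and most genes lie below the line in all parts of the slide.

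The ATPases of the regulatory particle held 2 of the 3 genes called on both scales. Psmc4, an ATPase of the base, had log2 ratios of -0.68, -0.58, -0.24, -0.52 and -0.73 on arrays 1 to 5 after correction. All 5 arrays were negative, and array 3 was the weakest. The corrected mean was -0.55 ± 0.19 (SD, n = 5; 95% interval -0.75 to -0.35; limma adjusted p = 0.0238), a linear ratio of 0.683, and the deposited mean was -0.60 ± 0.14 (adjusted p = 0.00524). Psmc4 lay in column 60, near the middle of the slide.

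Psmc3, another ATPase of the ring, had -0.76, -0.69, -0.37, -0.73 and -0.73 as deposited, with array 3 weaker than the other arrays, which lay between -0.76 and -0.69. Its mean was -0.65 ± 0.16 (adjusted p = 0.00492) as deposited and -0.44 ± 0.13 (adjusted p = 0.0255) after correction. Its corrected values were -0.59, -0.45, -0.24, -0.44 and -0.48, so no array was positive. Psmc1 passed as deposited alone, with -0.41 ± 0.14 (adjusted p = 0.0121) against -0.17 ± 0.16 after correction (adjusted p = 0.196), and array 3 turned positive on the second scale. Leaving out array 5 ended its deposited call (adjusted p = 0.0602).

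The other ATPases had smaller ratios. Psmc6 had -0.15 ± 0.15 after correction (adjusted p = 0.236), negative on 4 of 5 arrays. Psmc5 lay in column 100, and its deposited mean of 0.12 ± 0.091 became -0.19 ± 0.11 after correction (adjusted p = 0.136), negative on 5 of 5 arrays. The probes of Psmc2 disagreed. One, in column 99, had -0.37 ± 0.10 after correction and the other, in column 31, had 0.23 ± 0.10, so their mean of -0.07 describes neither. In all, 3 of the 6 ATPases were negative past the threshold as deposited (12.8% of all features) and 2 after correction (3.25% of all features). The corrected means of the 5 ATPases other than Psmc2 lay below 0.

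Of the 3 measured subunits of the base that are no ATPases, Psmd1 and Psmd2 passed as deposited and Psmd2 alone after correction. Of all features, 12.8% were called negative as deposited and 3.25% after correction. Psmd2, which binds ubiquitin-like domains and the deubiquitinase Usp14, had -0.80, -0.56, -0.39, -0.48 and -0.46 after correction. Array 1 was the most negative and array 3 the least, and no array reached 0. Its mean was -0.54 ± 0.16 (SD, n = 5; 95% interval -0.72 to -0.35; adjusted p = 0.0171), and -0.68 ± 0.15 as deposited (adjusted p = 0.0037). It had the most negative deposited mean of the 43 members.

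Psmd1, the other large scaffold of the base, had -0.53, -0.27, -0.26, -0.32 and -0.72 after correction, all negative, with arrays 1 and 5 lowest. Its mean of -0.42 ± 0.20 just missed the threshold (adjusted p = 0.0511), and as deposited it passed with -0.62 ± 0.17 (adjusted p = 0.00586). Psmd4, a ubiquitin receptor in column 104, had 0.14 ± 0.13 as deposited and -0.18 ± 0.14 after correction (adjusted p = 0.165), so its sign differed between the scales. As deposited, the calls of Psmc3, Psmc4, Psmd1, Psmd2 and Psmd10 held with each array left out in turn (adjusted p up to 0.0374). After correction, Psmc3 and Psmc4 no longer passed when array 1, 4 or 5 was left out (highest adjusted p = 0.148 and 0.132). Psmd2 no longer passed when array 4 or 5 was (highest adjusted p = 0.0889).

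The upstream stretches of 4 members are shown here as examples: Psmc4 and Psmd1 of the base, described above, and its chaperone Psmd10 and the catalytic subunit Psmb5, whose ratios follow. All 4 were called negative as deposited. Each is the 250 bases before the transcription start in the RefSeq promoter table (GRCm38.p6), 5′ to 3′ on the strand of the gene. Capitals mark CCAAT boxes (CCAAT or, on the other strand, ATTGG) and the antioxidant response element core TGACNNNGC, the kind of sequence that the Nfe2l1 product binds. The stretches are chr7:28050093-28050342, minus strand for Psmc4, chr1:86064369-86064618, plus strand for Psmd1, chrX:140956712-140956961, minus strand for Psmd10, and chr14:54617996-54618245, minus strand for Psmb5.
Psmc4: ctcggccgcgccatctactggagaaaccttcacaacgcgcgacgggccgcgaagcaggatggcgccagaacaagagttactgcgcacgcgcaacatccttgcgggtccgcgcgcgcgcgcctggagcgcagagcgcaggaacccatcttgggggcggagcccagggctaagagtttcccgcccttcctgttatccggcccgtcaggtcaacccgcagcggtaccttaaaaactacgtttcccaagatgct
Psmd1: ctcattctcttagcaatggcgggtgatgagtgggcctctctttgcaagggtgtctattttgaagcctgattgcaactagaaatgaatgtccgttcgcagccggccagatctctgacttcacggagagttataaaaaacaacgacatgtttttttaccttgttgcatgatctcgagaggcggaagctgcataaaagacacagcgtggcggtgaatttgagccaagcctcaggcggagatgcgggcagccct
Psmd10: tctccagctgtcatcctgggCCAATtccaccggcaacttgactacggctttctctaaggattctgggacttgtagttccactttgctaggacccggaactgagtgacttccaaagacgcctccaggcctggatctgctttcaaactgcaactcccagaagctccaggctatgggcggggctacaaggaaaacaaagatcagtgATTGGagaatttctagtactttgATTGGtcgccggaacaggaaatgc
Psmb5: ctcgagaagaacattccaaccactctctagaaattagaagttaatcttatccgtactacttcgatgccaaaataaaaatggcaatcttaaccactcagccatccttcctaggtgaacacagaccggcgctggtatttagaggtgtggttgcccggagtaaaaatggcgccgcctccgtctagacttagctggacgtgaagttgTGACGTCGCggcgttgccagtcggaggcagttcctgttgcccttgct

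Psmc4 and Psmd1 held neither sequence in this window, Psmd10 held 3 CCAAT boxes, and Psmb5 held 1 response element core, TGACGTCGC, that begins 47 bases before the start. None of these 4 stretches held both motifs, so no overlap of their matches could occur. The table gave 38 promoters for 35 members. The core TGACNNNGC on either strand was found in 4 of these 38 (10.5%), of Psmb5, Psmc6, Psmd9 and Psmd12, against 10.2% of all 32851 promoters. A CCAAT box on either strand was found in 14 of the 38 (36.8%), against 33.8% of all promoters. A match is a description of the letters and not of binding.

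Lid subunits had a broader spread. As deposited, 4 of 8 were negative past the threshold (12.8% of all features), and after correction limma called 0. On the corrected scale 4 had an unadjusted p under 0.05 (5771 of the 20861 features did), Psmd12 of them positive and the others negative. Psmd6 had -0.80, -0.27, -0.20, -0.24 and -0.36 after correction. Array 1 lay far below the other arrays, and the mean was -0.37 ± 0.25 (adjusted p = 0.0816). Psmd14, the deubiquitinase that takes the ubiquitin chain off the substrate, had -0.39, -0.33, -0.25, -0.55 and -0.20 as deposited, all negative. Its mean was -0.34 ± 0.13 (adjusted p = 0.0185), and -0.18 ± 0.10 after correction (adjusted p = 0.139), still negative on 5 of 5 arrays.

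Psmd3 and Psmd13, structural subunits of the lid, passed as deposited with -0.27 ± 0.11 (adjusted p = 0.0298) and -0.24 ± 0.093 (adjusted p = 0.0345). Their corrected means were -0.12 and -0.078, and both lay in the first 13 columns. Psmd3, Psmd13 and Psmd14 were not called as deposited when array 1, 4 or 5 was left out, nor Psmd13 without array 3 (highest adjusted p = 0.132), and Psmd6 was not without array 5 (adjusted p = 0.0516). Psmd8 had -0.20 ± 0.28 and Psmd7 -0.20 ± 0.11 after correction, and neither passed. Psmd11 had 0.11, -0.16, 0.54, 0.25 and 0.36 as deposited, with array 2 negative and array 3 the highest, and its corrected mean was -0.0023. Psmd12 was the only lid gene with a positive corrected mean (0.20 ± 0.16; adjusted p = 0.152), positive on 5 of 5 arrays.

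All 7 constitutive alpha subunits had negative means on both scales. Of all features, 12.8% were called negative as deposited. As deposited 5 of the alpha subunits passed: Psma2 (-0.32 ± 0.16; adjusted p = 0.0313), Psma3 (-0.31 ± 0.17; adjusted p = 0.035), Psma4 (-0.37 ± 0.16; adjusted p = 0.0188), Psma6 (-0.37 ± 0.21; adjusted p = 0.0313) and Psma7 (-0.34 ± 0.14; adjusted p = 0.0191). All 5 lay in columns 1 to 19, and none was called when array 1, 4 or 5 was left out, nor was Psma6 without array 3 (highest adjusted p = 0.127). After correction limma called 0 of 7, with 4 at an unadjusted p under 0.05 (5771 of the 20861 features), and the corrected means ranged from -0.24 to -0.09.

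Psma1 lay at the opposite side of the slide, in column 101, and its values differed between the scales. As deposited it had -0.07, -0.057, 0.014, 0 and 0.014, on both sides of 0 and close to it. After correction it had -0.28, -0.26, -0.17, -0.20 and -0.26, all negative and close to one another. The corrected mean was -0.24 ± 0.046 (adjusted p = 0.0657), with the smallest SD of the 43 members on that scale. The corrected means of Psma2, Psma4, Psma6 and Psma7 lay between -0.19 and -0.18. Psma5, the remaining alpha subunit, had a deposited mean of -0.086 ± 0.14 (adjusted p = 0.414) and a corrected mean of -0.10 ± 0.13 (adjusted p = 0.385), with array 3 positive on both scales. Psma8, which replaces Psma7 in male germ cells, had 0.32 ± 0.15 before (adjusted p = 0.0255) and 0.019 ± 0.17 after position correction (adjusted p = 0.89), and its call depended on array 1, 3 and 5 each.

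Of 6 measured beta subunits 1 was called negative as deposited (12.8% of all features) and 0 after correction (3.25% of all features). The called gene was the catalytic Psmb5, which carries the chymotrypsin-like activity and lay in column 9 of the slide. Its values were -0.38, -0.70, -0.15, -0.57 and -0.28, all negative, lowest on array 2 and weakest on array 3. The mean was -0.41 ± 0.22 (adjusted p = 0.0249), and after correction it was -0.23 ± 0.20 (adjusted p = 0.151), with array 3 at 0.026. Psmb5 was no longer called when array 1, 4 or 5 was left out (highest adjusted p = 0.0892). Psmb7, with the trypsin-like activity, had a deposited mean of -0.17 ± 0.17 (adjusted p = 0.159) and a corrected mean of -0.029 ± 0.18 (adjusted p = 0.834; 95% interval -0.22 to 0.17).

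The structural beta subunits did not share 1 sign. Psmb4 had -0.20 ± 0.048 after correction, negative on 5 of 5 arrays (adjusted p = 0.0884), while Psmb1 had -0.022 ± 0.084 and Psmb3 -0.0028 ± 0.18. Psmb2 varied more than any other member, with -0.68, 1.05, 0.10, 0.33 and 0.07 on arrays 1 to 5 as deposited. Arrays 1 and 2 lay at opposite ends, and the SD was 0.62, against a median SD of 0.14 over the members and 0.20 over all features. Its mean of 0.17 therefore carries a 95% interval from -0.36 to 0.71.

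Genes for assembly factors went with the subunits in part. As deposited 1 of 3 chaperones of the base and 1 of 3 measured chaperones of the core particle were called negative (12.8% of all features). After correction 0 of either kind were called (3.25% of all features). Psmd10, a chaperone of the base that is also known as the oncoprotein gankyrin, had -0.58, -0.45, -0.39, -0.61 and -0.63 as deposited. All arrays were negative and close to one another, with a mean of -0.53 ± 0.11 (adjusted p = 0.00524). After correction the mean was -0.33 ± 0.12 (adjusted p = 0.051). Psmd5, another chaperone of the base, had -0.28 ± 0.15 after correction (adjusted p = 0.0823), and Psmd9, the remaining one, had 0.045 ± 0.10 (adjusted p = 0.659). Of the chaperones that build the alpha ring, Psmg2 passed as deposited (-0.40 ± 0.16; adjusted p = 0.0151) and not after correction (-0.28 ± 0.20; adjusted p = 0.103), and leaving out array 4 ended its call (adjusted p = 0.062). Its partner Psmg1 had -0.11 ± 0.072 and Psmg3 had -0.17 ± 0.059 after correction, both short of the threshold.

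The inhibitor and the activators had ratios of both signs. Psmf1, which encodes an inhibitor of the core particle in the test tube, had 0.36, 0.30, 0.20, 0.96 and 0.68 as deposited. All 5 arrays were positive, and arrays 4 and 5 stood above the others. Its mean was the highest of the 43 on both scales. The mean was 0.50 ± 0.32 (adjusted p = 0.0311), and after correction it was 0.26 ± 0.29 (adjusted p = 0.19), with array 3 at -0.11. Psmf1 was no longer called when array 1, 4 or 5 was left out (highest adjusted p = 0.111).

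Psme4, a large nuclear activator, had a deposited mean of 0.25 ± 0.15 (adjusted p = 0.0527) and a corrected mean of 0.10 ± 0.17. Its probes had deposited means of 0.43 and 0.071. Psme1, an interferon-inducible activator, had -0.32, -0.45, 0.36, -0.26 and -0.32 after correction, negative on 4 arrays and positive on array 3, and its mean was -0.20 ± 0.32 (adjusted p = 0.328). Psme3, a nuclear activator, had -0.11 ± 0.12 (adjusted p = 0.331). Of the genes that only share the symbol, Psmc3ip had -0.03 ± 0.11 as deposited and -0.01 ± 0.14 after correction, and Psme3ip1 had -0.014 ± 0.14 and -0.30 ± 0.11 (adjusted p = 0.0559). Neither passed on either scale.

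The shift of the members below other genes was present on each array and was smallest on array 3. The medians of the 43 members were -0.22, -0.17, -0.085, -0.20 and -0.18 on arrays 1 to 5 after correction. All 5 lay below the medians of all features, which were 0, -0.012, -0.0008, -0.0067 and 0. The members with a corrected value below 0 numbered 37, 31, 28, 35 and 38 on arrays 1 to 5, against between 49.0% and 50.9% of named genes. Array 3 held the highest corrected value of 23 of the 43 members, and no other array did so for more than 9. Named genes also spread least on array 3, with corrected 5th and 95th percentiles of -0.36 and 0.36. On array 2, where they spread most, these were -0.84 and 0.57. The part of this spread in the smaller shift on array 3 was not tested. As deposited the medians of the members were -0.18, -0.19, -0.07, -0.12 and -0.19. The median SD of a member over the arrays was 0.14 on both scales, against 0.20 as deposited and 0.19 after correction over all features.

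**Figure D3:**
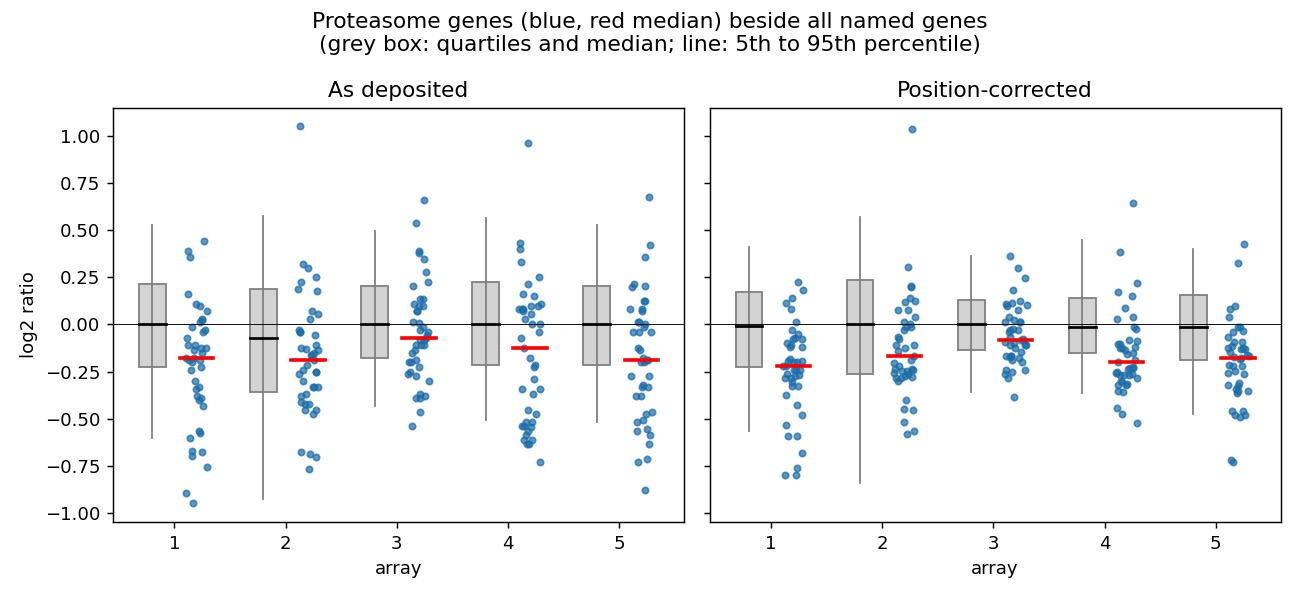
Log2 ratios of the 43 genes (blue points, red line the median) beside all 16504 named genes (grey box from the 25th to the 75th percentile with the median, line from the 5th to the 95th) on each array, as deposited and position-corrected. The red medians lie below the grey medians on all 5 arrays, with the smallest gap on array 3.

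The rule of the design text asks for 1.5-fold on at least 4 of 5 arrays. As deposited 2 members met it on the negative side, Psmc3 and Psmd2 (2.52% of all features did), and 0 on the positive side (0.465% of all features). After correction 0 members met it in either direction (2.4% of all features on the negative and 0.0623% on the positive side). The features on the negative side include the 256 very low spots, and of named genes 0.46% met it as deposited and 0.194% after correction.

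The inducible beta subunits, which replace the constitutive catalytic ones under interferon, did not move as one. Psmb8, the counterpart of Psmb5, had -0.53, -0.70, -0.094, -0.61 and -0.47 after correction, all negative with array 3 the weakest. Its mean was -0.48 ± 0.23 (adjusted p = 0.0492), and -0.38 ± 0.28 as deposited (adjusted p = 0.0498). The corrected call did not hold when array 1, 4 or 5 was left out (highest adjusted p = 0.195), and the deposited call did not when array 2 was either. Psmb9 had -0.12 ± 0.12 and Psmb11, the beta subunit of cortical thymic epithelium, had 0.14 ± 0.16, and neither passed. Psmb10 varied from -0.34 on array 2 to 1.20 on array 1.

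Proteasome subunits and partners outside the symbol rule were also mostly negative. Of 9 measured genes of 11 listed, 6 were negative past the threshold as deposited (12.8% of all features) and 0 positive (11.7% of all features). After correction 2 were negative (3.25% of all features), and the median of the means was -0.20. Zfand2a, a stress-induced protein that binds the regulatory particle, had -0.47, -0.74, -0.55, -0.71 and -0.52 after correction, all negative, with a mean of -0.60 ± 0.12 (adjusted p = 0.00533). It passed on both scales with each array left out in turn (adjusted p up to 0.0429 after correction), which no member did after correction. Zfand5, an activator of the proteasome, had -0.41 ± 0.12 (adjusted p = 0.0303), and array 2 was the one array it did not need on either scale. The proteasome deubiquitinase Usp14 (-0.50 ± 0.18; adjusted p = 0.0112), its counterpart Uchl5 (-0.29 ± 0.16; adjusted p = 0.0386), the small lid subunit Sem1 (-0.39 ± 0.15; adjusted p = 0.0153) and the scaffold Ecpas (-0.54 ± 0.27; adjusted p = 0.0169) passed as deposited and not after correction. Each of these 4 calls ended when array 5 was left out. Pomp, which matures the core particle, had 0.014 ± 0.13 after correction.

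Of 9 regulators of subunit transcription, 8 had a mean below 0 as deposited and 7 after correction (54.5% and 52.0% of all features). The medians of their means were -0.22 and -0.21. As deposited 3 were negative past the threshold (12.8% of all features) and 1, Nfe2l1, was positive (11.7% of all features). Nfe2l1 had 0.52, 0.86, 0.12, 0.39 and 0.44 as deposited, positive on 5 of 5 arrays and highest on array 2. Its mean was 0.47 ± 0.27 (adjusted p = 0.0257), and 0.32 ± 0.33 after correction (adjusted p = 0.169). Its relative Nfe2l2, the oxidative stress factor, had a deposited mean of -0.50 ± 0.15 (adjusted p = 0.00858) and a corrected mean of -0.33 ± 0.17 (adjusted p = 0.0674). Nfya, a subunit of the CCAAT-binding factor, and Mafk, a dimer partner of both Nfe2l factors, were negative as deposited (-0.46 ± 0.31, adjusted p = 0.0364, and -0.26 ± 0.12, adjusted p = 0.0357). After correction 0 of these 9 regulators passed with limma, with 5 at an unadjusted p under 0.05 (5771 of the 20861 features). As deposited, the call of Nfe2l2 held with each array left out (adjusted p up to 0.049), while those of Nfe2l1 and Nfya did not without array 1, 4 or 5 and that of Mafk did not without any 1 array.

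Upstream of the proteasome, 3 of 5 measured genes of the p97 unfoldase complex were negative as deposited, Faf1 (-0.55 ± 0.33), Ufd1 (-0.37 ± 0.19) and Ngly1 (-0.41 ± 0.29), and 0 after correction. The share of all features called negative was 12.8% as deposited and 3.25% after correction. Of 6 shuttle receptors, which carry ubiquitinated proteins to the proteasome, Sqstm1 (-0.21 ± 0.061) and Ubqln4 (-0.20 ± 0.063) were negative as deposited and 0 passed after correction. The single measured gene of 6 listed for ubiquitin itself and its activation had a deposited mean of -0.22 and did not pass.

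Other large complexes of housekeeping kind also had medians below 0 after correction. Of all features, 52.0% had a mean below 0 after correction, 3.25% were called negative and 0.7% positive. As deposited 12.8% of all features were called negative and 11.7% positive. The chaperonin CCT, which folds actin and tubulin, had a median of -0.22 with 8 of 8 means below 0, and its member Cct3 passed (-0.42 ± 0.13; adjusted p = 0.0302), though not without array 1, 3, 4 or 5. As deposited its member Cct8 passed (-0.50 ± 0.21; adjusted p = 0.0128). The translation factor eIF3, whose core subunits share folds with the lid, had a corrected median of -0.15 with 10 of 12 means below 0 and 0 calls. As deposited Eif3b was positive (0.31 ± 0.17) and Eif3c (-0.48 ± 0.31) and Eif3d (-0.32 ± 0.16) were negative past the threshold. The COP9 signalosome, built like the lid, had -0.08 with 7 of 9 below 0 and 0 calls. As deposited Cops6 was positive (0.24 ± 0.12) and Cops4 (-0.37 ± 0.14) and Cops8 (-0.42 ± 0.29) were negative. The genes of CCT, eIF3 and COP9 called negative as deposited lay in columns 1 to 35, where 25.6% of named genes were. Eif3b and Cops6 lay in columns 86 and 103, among the last 35 columns, where 1698 of 5267 named genes were called positive. Of 67 cytosolic ribosomal proteins, taken by symbol after the values were seen, 53 lay below 0 after correction with a median of -0.10 and 0 calls. As deposited 13 of the 67 were called negative and 4 positive. For 33 Nduf subunits of respiratory complex I, taken likewise, 28 lay below 0 after correction, with a median of -0.05 and 0 calls. As deposited 8 of the 33 were called negative and 2 positive. All deposited calls of genes named for CCT, eIF3, COP9, p97 and the shuttle receptors ended when array 4 or array 5 was left out. The proteasome values were not tested against these lists.

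**Figure D4:**
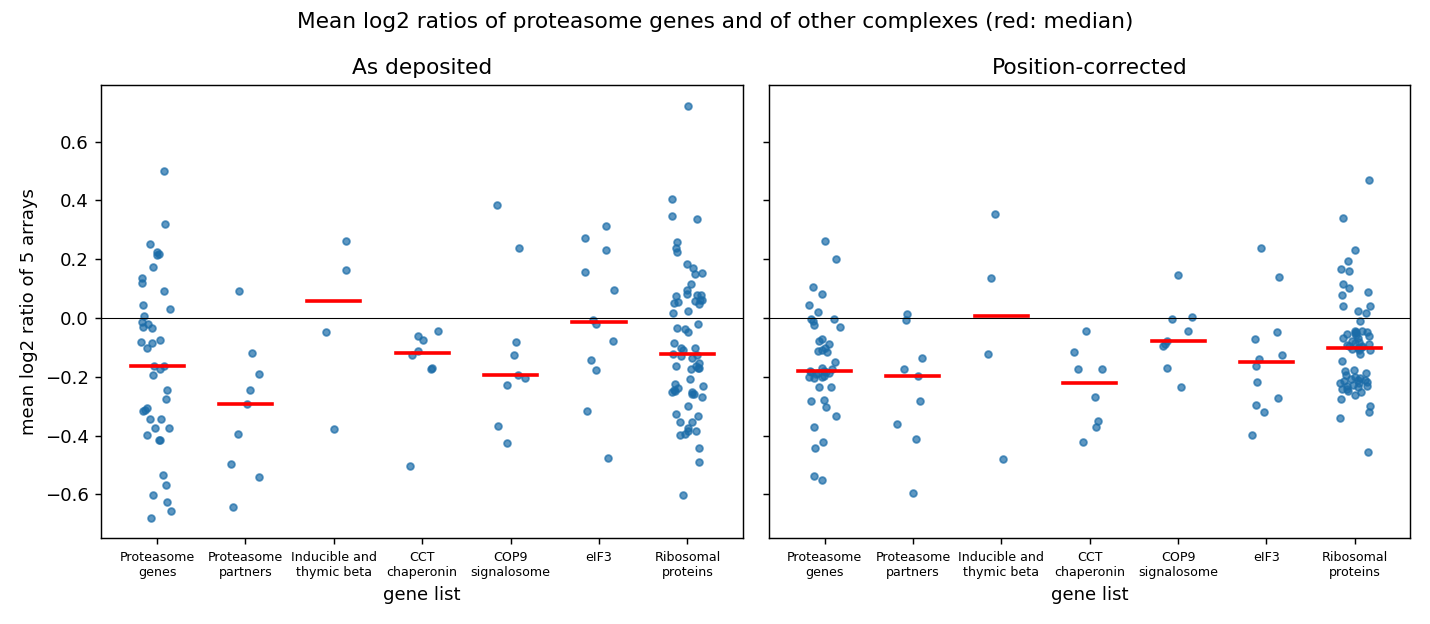
Mean log2 ratio over 5 arrays of each gene (points) and the median (red line) for the 43 proteasome genes and 6 other lists, as deposited and position-corrected. After correction the medians of the proteasome genes (-0.18), CCT (-0.22), eIF3 (-0.15) and ribosomal proteins (-0.10) all lie below 0.

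Some markers of the cell types in a thymus also passed the threshold, and all of these but Foxn1 did so as deposited alone. In bulk RNA, fewer cells of a type and less RNA per cell cannot be told apart. Of 11 thymocyte markers measured, 4 were negative past the threshold as deposited (Rag1, Cd8a, Dntt and Cd4; 12.8% of all features). As deposited 2 were positive (Cd3e and Ptcra; 11.7% of all features), and after correction 0 passed. The 4 negative genes lay in columns 1 to 35 of the slide, Ptcra in column 61 and Cd3e in column 101. The corrected median of these markers was -0.32, 0.10, -0.05, -0.30 and -0.31 on arrays 1 to 5, and as deposited it was -0.36, 0, -0.10, -0.26 and -0.37. The medians of the 43 members on arrays 1 to 5 were -0.22, -0.17, -0.085, -0.20 and -0.18 after correction. As deposited they were -0.18, -0.19, -0.07, -0.12 and -0.19. B cell markers lay above 0 in 4 of 4 means, with a corrected median of 0.22, and Cd79a, Cd79b and Ms4a1 were positive as deposited. These called B cell genes lay in the last 35 columns, where 1698 of 5267 named genes were called positive as deposited. Among 9 thymic epithelium markers Foxn1 was positive on both scales and Ccl25 was negative as deposited, and the corrected median was 0.07. The corrected call of Foxn1 ended without array 1, 4 or 5 (highest adjusted p = 0.075), and of the deposited marker calls those of Foxn1 and Cd3e held with each array left out. None of the markers of macrophages (3 measured, corrected median -0.10), erythroid cells (2, 0.08), fat (4, 0.23) and lymph node or vessel (4, 0.16) passed on either scale with limma. Erythroid and fat markers differed widely between arrays. The corrected erythroid median was 0.23, 1.46, -0.13, -0.33 and -0.82 on arrays 1 to 5. That of fat was 0.21, -0.17, -0.23, 0.58 and 0.60. The part of cell composition in the proteasome ratios was not tested.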

How the data were processed

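Total RNA of whole thymus was hybridised to Agilent mouse arrays in 2 colours, per the labels. The deposited values are log2 ratios, made by the authors from GenePix images with lowess normalization in GeneTraffic 2.6, and spots under a raw intensity of 100 were left out of that normalization, per the series design text. Spot brightness and flags were not used here, so dim spots could not be removed, and the number of arrays limits the precision. The table held 22575 spots on a grid of 215 by 105 with 0 missing values, and no pair of arrays was identical. Annotation numbers were matched to values with rows and columns of the slide exchanged. Of the probes, 18218 had 1 gene in the annotation, 16 had several and 4341 had none, and all 43 members matched the RefSeq gene table by gene number. Probes of a gene were averaged, giving 20861 features. Each feature's 5 ratios were set against 0 in a limma fit with an intercept alone (limma 3.58.1, R 4.3.3) and Benjamini-Hochberg adjustment over all features at 0.05. Adjusted p-values in the text are from this fit, on either scale. Values are mean ± SD over 5 arrays, and intervals are limma's. Separate mice are named per array, so p-values hold animal and technical spread together. For the corrected scale the local median of 21 by 21 spots was subtracted, leaving out the 256 very low spots. Genes named are members past the threshold on either scale, catalytic subunits, ATPases and Psmd14, the extremes of each role, members with several probes, listed genes of other lists past the threshold, and Psmb8 to Psmb11, Pomp, Nfe2l1 and Hivep3. Other members are given so that all 43 are accounted for. The members, lists and tests were chosen with earlier results of these data known, and lists were described by counts and medians without a test. Steps were tested on simulated data. Alternatives were centring, scaling, array weights, robust eBayes, other windows and thresholds, named genes alone, single probes, core subunits alone, deposited numbers and each array left out.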

Additional observations from a re-analysis of the deposited data

Results flagged for a closer look

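Among 86 sets of 5 values (43 members on both scales), 8 had an array that stood apart from the other 4 by Dixon's test at 95%, where chance alone gives about 5%. The sets are not independent, because both scales hold the same genes and all genes share the arrays, so the count cannot be judged against that 5%. Psmd6 on array 1 is counted on both scales. As deposited, array 3 stood apart for Psmb1 (-0.014, with the others from -0.21 to -0.19) and for Psmc3 (-0.37, with the others from -0.76 to -0.69), and array 1 for Psmd6 (-0.95, with the others from -0.54 to -0.39). After correction array 3 stood apart for Psma7 (-0.027, others -0.25 to -0.22), Psmc1 (0.097, others -0.30 to -0.19) and Psme1 (0.36, others -0.45 to -0.26). Array 1 stood apart for Psmd6 (-0.80, others -0.36 to -0.20) and Psmg3 (-0.27, others -0.17 to -0.13). In all 8, the array was 1 or 3, and array 3 was always the highest of its set and array 1 the lowest. The cause was not tested.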

How the results depend on the processing

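No paired analysis was possible because the arrays form 1 group, with each pair of mice already on 1 array. The median of the member means stayed below 0 on both scales in all settings except with the probe numbers as deposited, which put other genes under these names and gave 0.015 as deposited and -0.021 after correction. With core subunits alone the deposited median was -0.26. The negative calls as deposited numbered 4 with deposited numbers and 5 at a threshold of 0.01, and 6 to 17 with each array left out. The positive calls as deposited numbered 5 with array weights, 0 at a threshold of 0.01, 5 at 0.1, 0 among core subunits, and 0 to 3 with each array left out. The corrected negative calls numbered 12 with array weights, 5 with scaled arrays, 5 with named genes alone, 5 with a window of 11 by 11 spots, 0 with deposited numbers, 0 at a threshold of 0.01, 10 at 0.1, and 0 to 5 with each array left out. The corrected positive calls were 0 in every setting run, with limma. The causes were not tested.

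Means close to 0 changed sign. With median-centred arrays the deposited means of Psma1 and Psme3ip1 became 6e-05 and 0.0059, and with array weights that of Psme3ip1 became 0.00072. Corrected means became -0.038 (Psmb2) and 0.044 (Psmd11) with array weights, 0.0059 (Psmb3) and 0.021 (Psmd11) with scaled arrays, 0.032 (Psmb3) and 0.012 (Psmc3ip) with column and row medians, and 0.0051 (Psmb3) and 0.053 (Psmd11) with a window of 41 by 41 spots. With each array left out, deposited means ranged from -0.044 to 0.39 for Psmb2, -0.0031 to 0.069 for Psmc2, -0.023 to 0.055 for Psmd12, -0.049 to 0.18 for Psme1 and -0.055 to 0.024 for Psme3ip1. Corrected means ranged from -0.021 to 0.092 for Psma8, -0.16 to 0.29 for Psmb2, -0.060 to 0.059 for Psmb3, -0.098 to 0.018 for Psmb7, -0.048 to 0.029 for Psmc3ip and -0.077 to 0.067 for Psmd11. None of the genes in this paragraph was called on the scale named.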
